A study of Rattus norvegicus with 6 samples.

Results

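Transcripts of the nuclear receptors of liver were measured in livers of microbiota recipients. The members were 35 gene symbols, taken by name from the deposited gene table, and they occupied 36 of its 30957 rows because Nr3c1 was listed at a pair of loci. Both groups held female Sprague Dawley rats, 3 weeks old when purchased, whose own gut microbiota had been depleted with an antibiotic cocktail given in 3 courses (pseudo germ-free recipients). For 2 weeks thereafter the t-PBS rats were gavaged daily with faecal microbiota from donors injected with PBS. The t-DHEA rats were gavaged in the same way with faecal microbiota from donors injected with dehydroepiandrosterone (DHEA), an androgen precursor that gives rats features of polycystic ovary syndrome. Antibiotics and gavage were therefore common to both groups, and no rat with its native microbiota was among these samples. Liver RNA was sequenced from 3 of the 6 rats in each group, and the comparison asks how the origin of the transplanted microbiota was reflected in hepatic transcripts. Donor pellets were pooled, so an effect of a donor pool cannot be told apart from that of a group. Rats were housed in pairs, and the cages of the sequenced rats are not given, so an effect of a cage cannot be separated either.

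Nuclear receptors are transcription factors, most of which are switched by small lipophilic ligands such as bile acids, oxysterols, fatty acids, retinoic acid, thyroid hormone and steroids. Many bind DNA as pairs with an RXR partner at repeats of a short half-site, and they exchange corepressors for coactivators when ligand arrives. In liver they set bile acid, lipid, glucose and drug metabolism, and Hnf4a maintains the identity of the hepatocyte. Several of their ligands, bile acids in particular, are modified by gut bacteria.

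Each liver gave a total count on genes of 12348511 to 14316886, and the groups overlapped. Levels between genes are given as the deposited FPKM (fragment counts divided by the gene's length and the depth of the library), since only a value per length can be compared between genes. Differences between groups are given as CPM, counts scaled to a common library size, after TMM scaling and were tested with edgeR's quasi-likelihood test on the counts of all 12210 genes that passed its filter for low values. A gene was called at an unadjusted p below 0.05 with a fold change above 1.2. These limits are the ones the study applied. All 6 hepatocyte markers were tested and none was called, and their summed level was 127000 to 139000 CPM in t-PBS and 129000 to 155000 CPM in t-DHEA livers. Markers of some other cells moved with the group: the summed mesothelial markers were 26.7 to 32.7 CPM in t-PBS and 3.14 to 13.9 CPM in t-DHEA livers (all 5 tested were called lower, Msln among them), cholangiocyte markers 41.7 to 48.2 against 30.5 to 38.0 CPM (2 of 6 called lower), red blood cell markers 176 to 275 against 296 to 582 CPM (3 of 4 called higher) and neutrophil markers 0.516 to 1.05 against 1.62 to 2.23 CPM, with Mpo at 0 in every liver. Their part in the results was not tested. In bulk liver, fewer cells of a type and less RNA per cell cannot be told apart.

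The promoters of 4 genes are shown because they belong to receptors on which the results turn: Rara was the only member called, Rarb made most of the RAR transcripts, Nr5a2 separated the groups, and Nr0b2 varied most among the abundant receptors. Each run is 5′ to 3′ on the gene's own strand, from 250 bases before to 50 after the start of transcription, from RefSeq on the build GRCr8 (the gene table itself uses Rnor_6.0). Capitals mark the motifs searched on both strands: the receptor half-site AGGTCA, its variants AGTTCA and also GGTTCA, the core of the site of NR5A receptors TCAAGG, the E-box CACGTG and the GC box GGGCGG.
Rara promoter: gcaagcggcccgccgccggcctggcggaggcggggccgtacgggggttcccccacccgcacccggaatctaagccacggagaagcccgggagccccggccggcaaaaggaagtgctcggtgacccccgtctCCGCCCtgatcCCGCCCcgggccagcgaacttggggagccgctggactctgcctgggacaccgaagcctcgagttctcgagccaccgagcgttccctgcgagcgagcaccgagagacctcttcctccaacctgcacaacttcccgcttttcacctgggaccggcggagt
Rarb promoter: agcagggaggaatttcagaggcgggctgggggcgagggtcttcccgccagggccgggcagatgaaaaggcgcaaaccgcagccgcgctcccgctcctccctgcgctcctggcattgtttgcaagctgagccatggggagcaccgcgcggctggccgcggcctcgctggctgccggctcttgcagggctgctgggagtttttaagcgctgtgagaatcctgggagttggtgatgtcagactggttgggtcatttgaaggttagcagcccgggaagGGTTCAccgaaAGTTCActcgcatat
Nr5a2 promoter: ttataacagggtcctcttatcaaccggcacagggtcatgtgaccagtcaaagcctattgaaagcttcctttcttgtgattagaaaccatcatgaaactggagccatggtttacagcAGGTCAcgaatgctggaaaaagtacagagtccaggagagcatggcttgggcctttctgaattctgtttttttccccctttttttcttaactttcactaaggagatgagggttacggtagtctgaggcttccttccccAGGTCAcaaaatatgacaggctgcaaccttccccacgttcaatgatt
Nr0b2 promoter: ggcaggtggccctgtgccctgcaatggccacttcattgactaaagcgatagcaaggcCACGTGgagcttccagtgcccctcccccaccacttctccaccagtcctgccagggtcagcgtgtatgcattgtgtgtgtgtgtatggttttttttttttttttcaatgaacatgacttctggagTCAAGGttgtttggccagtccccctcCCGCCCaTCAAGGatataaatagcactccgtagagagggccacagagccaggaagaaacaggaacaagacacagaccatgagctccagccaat
They lie at chr10:84411217-84411516 (plus strand), chr15:11336142-11336441 (plus strand), chr13:50984889-50985188 (minus strand) and chr5:151062910-151063209 (plus strand), respectively. The Rara window was 70.3% G and C and held 2 GC boxes and none of the half-sites. The Rarb window held GGTTCA and AGTTCA separated by 5 bases and starting at base 275 of the run, an arrangement that is known as the retinoic acid response element of this gene. This pair, at this spacing, was present in 3 of 33469 windows of the table (0.00896%). The Nr5a2 window held AGGTCA at 2 places, and the Nr0b2 window held TCAAGG at 2 places, a GC box and an E-box. A window was available for 30 of the 35 symbols, as 38 windows in all. GGGCGG was found in 21 of these 38 windows (55.3%) and in 33.1% of all windows, and the members' windows were also richer in G and C, with a median of 61.8% against 51.7%. AGGTCA was found in 3 of the 38 windows against 16.2% of all windows, AGTTCA in 5 against 14.5%, GGTTCA in 3 against 11.7%, TCAAGG in 6 against 14.8%, and CACGTG in 1, that of Nr0b2, against 6.42%. AGGTCA and TCAAGG can overlap by the letters they share, whereas a match is only a run of letters and was not tested as a site.

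Every one of the 36 rows had counts, but levels ran over more than 3 orders of magnitude. Hnf4a, the hepatocyte identity factor, had the highest mean, 115 FPKM (range 107 to 129), which placed it at rank 504 of all rows of the table. Rxra, the common dimer partner, followed at 111 FPKM (104 to 122, rank 528), and these 2 did not differ beyond their ranges. Next came Nr1i2 (PXR, the receptor for foreign compounds) at 68.9 FPKM and Nr1h3 (LXRalpha, an oxysterol receptor) at 68.1 FPKM, whose ranges also overlapped and which exchanged the third place in t-DHEA livers 2 and 3. Nr1h4 (FXR, the bile acid receptor) stood apart from its neighbours, at 36.2 FPKM and at rank 5 among the members in every liver. The other rows above 10 FPKM were Nr3c1 (the glucocorticoid receptor, 28.1 FPKM), Nr2f6 (21.7 FPKM), Rarb (19.3 FPKM), Nr1h2 (18.8 FPKM), the second row of Nr3c1 (17.5 FPKM), Nr5a2 (13.4 FPKM), Nr0b2 (13.1 FPKM), Nr2f2 (11.1 FPKM) and Thrb (10.3 FPKM). Of the 36 rows, 14 were above 10 FPKM, 18 lay between 1 and 10 FPKM and 4 were at or below 1 FPKM. The median over all tested genes was 5.46 FPKM, and 18 of the members exceeded it. In this order 31 of the 35 adjacent pairs overlapped over the 6 livers, with gaps only after Rxra, Nr1h3, Nr1h4 and Pparg.

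**Figure D1:**
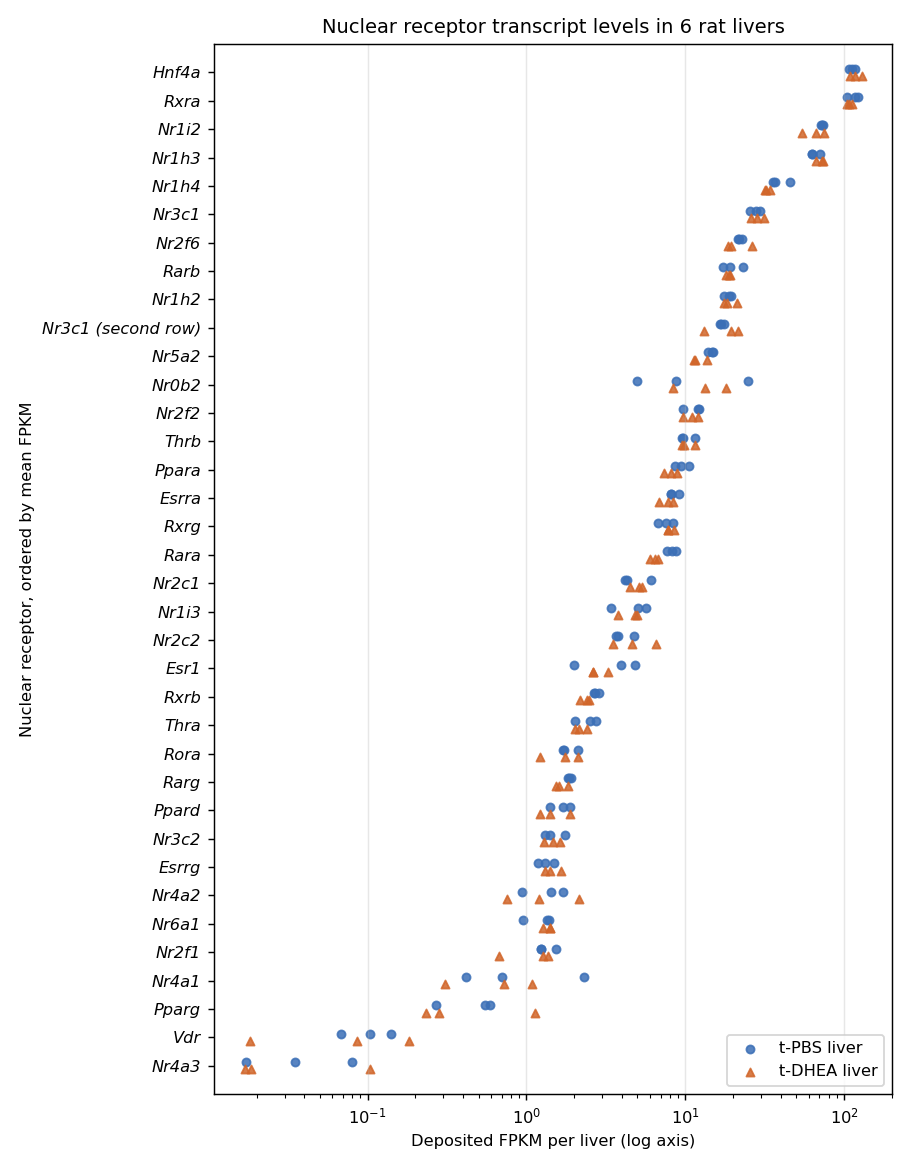
Deposited FPKM of each nuclear receptor row (log axis) in the 3 t-PBS and the 3 t-DHEA livers, ordered by mean. Hnf4a and Rxra lead at 115 and 111 FPKM, Vdr and Nr4a3 are lowest at 0.0997 and 0.0452 FPKM, and Nr0b2 spans 4.97 to 25.0 FPKM.

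The 4 rows at or below 1 FPKM were Nr4a1, an immediate early receptor, at 0.921 FPKM, Pparg, the adipocyte regulator, at 0.509 FPKM, Vdr, the vitamin D receptor, at 0.0997 FPKM, and Nr4a3 at 0.0452 FPKM. Vdr had 9, 6 and 4 counts in t-PBS and 1, 11 and 5 in t-DHEA livers, and Nr4a3 had 5, 2 and 1 against 1, 1 and 6. These counts were close to the limit of 3 counts that a count of 0 would allow, equal to 0.21 to 0.243 CPM for counting error only, and neither gene passed the filter, so that 34 rows were tested. A total of 34 rows had more than 3 counts in every liver, and 33 had more than 10. Of 12 further nuclear receptors outside the member list, only 3 were tested, among them Nr1d1 (45.9 FPKM) and Nr1d2 (12.9 FPKM), repressors of the circadian clock. The genes of the oestrogen receptor beta (Esr2), Esrrb, Rorb, Nr0b1, Nr2e1 and Nr2e3 were listed at 0 in all 6 livers.

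Between the groups the receptor transcripts differed little. Of the 34 tested rows, 18 were lower and 16 higher in t-DHEA, with a median log2 fold change of −0.02 beside 0.00 over all tested genes, and the median size of the change was 0.11 on the log2 scale both among the members and among all genes. A single member, Rara, was called, which is 2.94% of the members beside 4.95% of all tested genes (2.98% called lower and 1.97% called higher). After Benjamini-Hochberg adjustment over all genes, edgeR's quasi-likelihood test left 0 members and 0.0% of all tested genes under an adjusted p of 0.05, and no member passed that limit with DESeq2 or edgeR's likelihood-ratio test either. The lowest adjusted p of a member was 0.868, and 1 member and 634 genes had an unadjusted p below 0.05. In 4 members, Rara, Nr1h4, Nr5a2 and Rxrb, the highest t-DHEA value was lower than the lowest t-PBS value. That is 11.8% of the members, beside 10.1% of all tested genes whose groups did not overlap in either direction and 5.42% with t-DHEA below t-PBS. The count depended on the scaling, with 3 members separated under DESeq2 size factors and 5 under the total count alone. The data bounded most members closely: the 95% interval of the difference lay within a 1.5-fold change either way for 25 of the 34 rows and within a 2-fold change for 31, the other rows being Nr0b2, Pparg and Nr4a1. The median coefficient of variation within groups was 11.8% for the members and 13.2% for all tested genes.

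**Figure D2:**
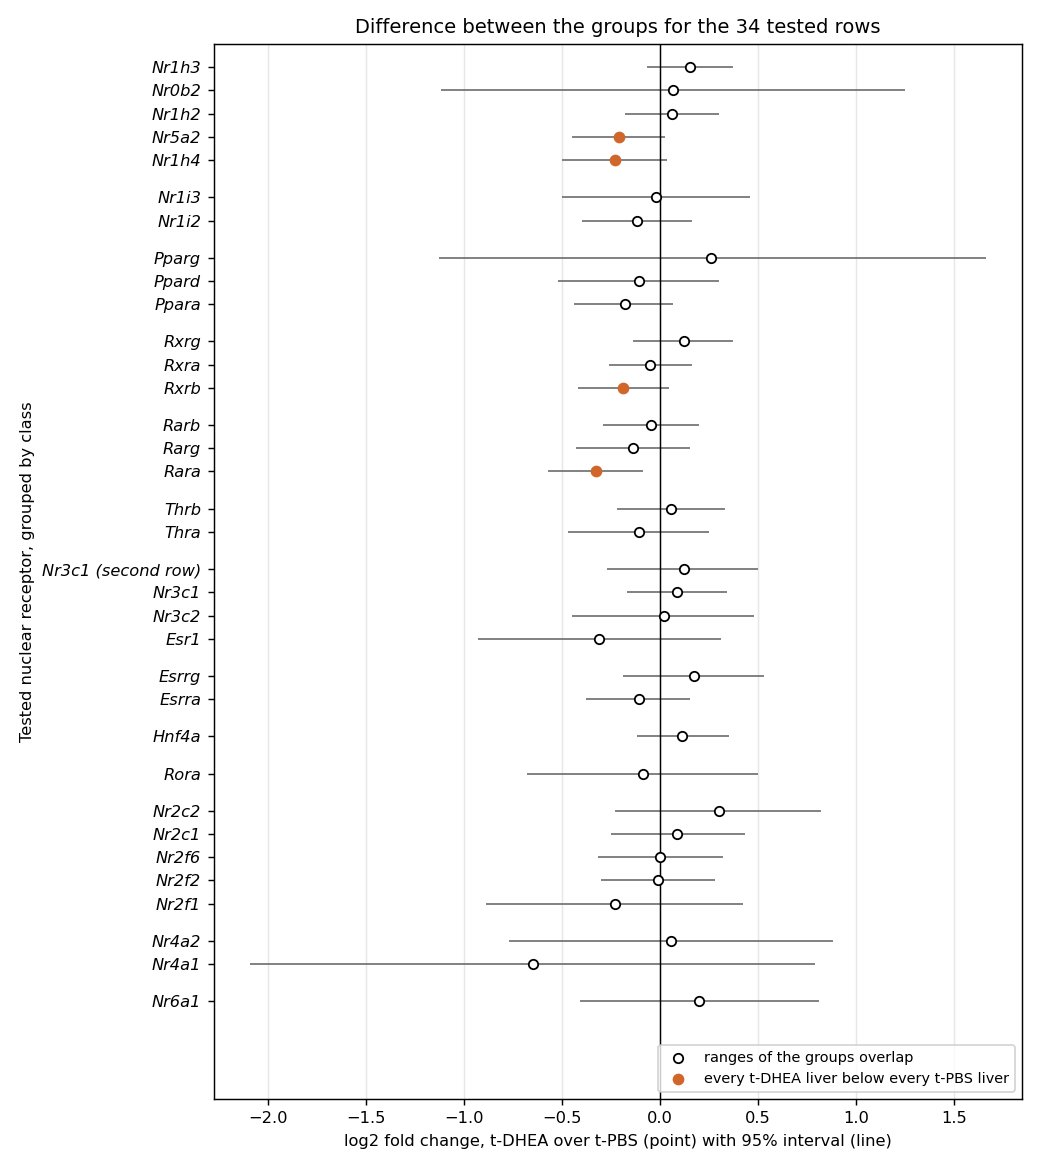
Log2 fold change (t-DHEA over t-PBS) with its 95% interval for the 34 tested rows, grouped by receptor class. Filled points mark Rara, Nr1h4, Nr5a2 and Rxrb, whose t-DHEA livers all lay below the t-PBS livers, and only the interval of Rara, from −0.57 to −0.087, leaves out 0.

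Rara encodes the retinoic acid receptor alpha (ENSRNOG00000009972, Rnor_6.0 chr10:86860685-86884210), which pairs with RXR and responds to all-trans retinoic acid. It was measured at 36.9, 33.2 and 31.9 CPM in t-PBS livers 1, 2 and 3 and at 27.4, 28.7 and 25.3 CPM in t-DHEA livers. The highest t-DHEA liver was below the lowest t-PBS liver. The mean fell from 34.0 ± 2.61 to 27.1 ± 1.72 CPM (SD, n = 3 each), a log2 fold change of −0.33 ± 0.11 (SE), which is 0.797-fold with a 95% interval of 0.674 to 0.941 (edgeR's quasi-likelihood test, unadjusted p = 0.0133, adjusted p = 0.868). The call was held under every alternative scaling, tool and filter, whereas without t-PBS liver 1 the log2 fold change was −0.26 and the call was lost (unadjusted p = 0.0529 in edgeR). Over the 6 refits that each left out one liver the value ran from −0.37 to −0.26, and 5 of them called the gene. Raising the limit to a fold change of 1.5 removed the call. The summed mesothelial and cholangiocyte markers given above were also lower in every t-DHEA liver, although 1 of the 6 tested cholangiocyte markers was higher. The part of these markers in this difference was not tested.

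The other RAR genes did not follow with a call. Rarb had 53.6, 69.0 and 59.5 CPM in t-PBS and 57.1, 59.8 and 59.4 CPM in t-DHEA livers (log2 fold change −0.05 ± 0.11). Rarg had 10.1, 9.59 and 10.3 CPM against 8.42, 9.95 and 8.81 CPM (−0.14 ± 0.13). In both genes the groups overlapped. On the per-length scale Rarb made up a mean of 68.1% of the RAR transcripts, Rara 25.7% and Rarg 6.21%. The share of Rara was 31.5%, 24.8% and 26.5% in t-PBS and 24.6%, 24.4% and 22.5% in t-DHEA livers, a mean of 27.6% against 23.8%. The groups were separated, although by a narrow margin between t-PBS liver 2 and t-DHEA liver 1. An exact two-sided permutation test gave p = 0.1, the smallest that 3 against 3 livers allow and the value that any such separation gives. The share is computed from the same Rara values as the call, so it is not separate evidence. Of the 13 family shares computed, none of the other 12 was separated. Among 7 genes known to respond to retinoic acid, 6 were tested, 5 were higher and 1 lower, and none was called (median log2 fold change 0.14). Cyp26a1, the enzyme that degrades retinoic acid and is driven by RAR, had 6.59, 5.24 and 10.3 CPM against 11.3, 6.13 and 10.9 CPM (0.36 ± 0.29), and the groups overlapped.

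**Figure D3:**
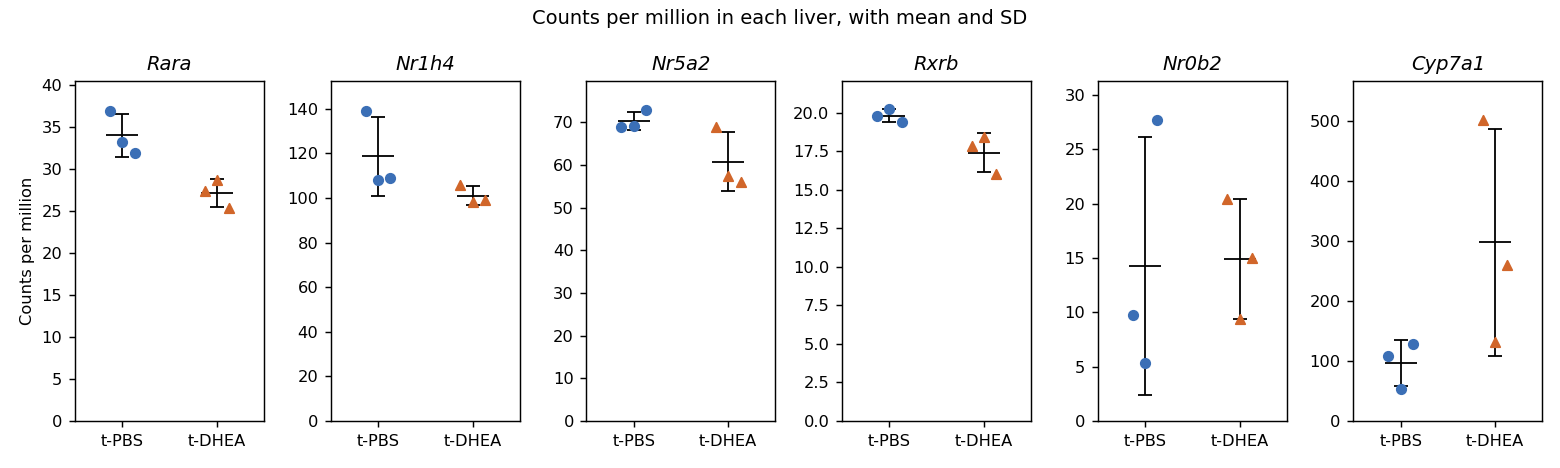
CPM in each liver (points), with group mean and SD (bars), for the 4 receptors whose groups did not overlap, for Nr0b2 and for its target Cyp7a1. Rara was 31.9 to 36.9 CPM in t-PBS and 25.3 to 28.7 CPM in t-DHEA livers, while Nr0b2 spanned 5.31 to 27.7 CPM within t-PBS alone.

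The RXR family provides the partner of the RAR, LXR, FXR, PPAR, PXR and thyroid hormone receptors. Rxra accounted for 91.5% of its transcripts per length, Rxrg for 6.44% and Rxrb for 2.10%. The length behind the FPKM of Rxrb, 7306 bases, exceeds the span of its locus (chr20:3823042-3829140). Its FPKM and its share are therefore uncertain and may be too low. Rxrb was at 19.8, 20.2 and 19.4 CPM in t-PBS and 17.8, 18.4 and 16.0 CPM in t-DHEA livers, without overlap. Its log2 fold change of −0.19 ± 0.10 was not called (edgeR's quasi-likelihood test, unadjusted p = 0.0998). Rxra was at 209, 233 and 232 CPM against 216, 209 and 224 CPM, so the main partner overlapped between the groups (−0.05 ± 0.09). Rxrg was at 21.5, 23.3 and 26.8 CPM against 25.3, 27.3 and 25.0 CPM (0.12 ± 0.11). The summed RXR level was 114, 132 and 128 FPKM in t-PBS and 117, 115 and 122 FPKM in t-DHEA livers.

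**Figure D4:**
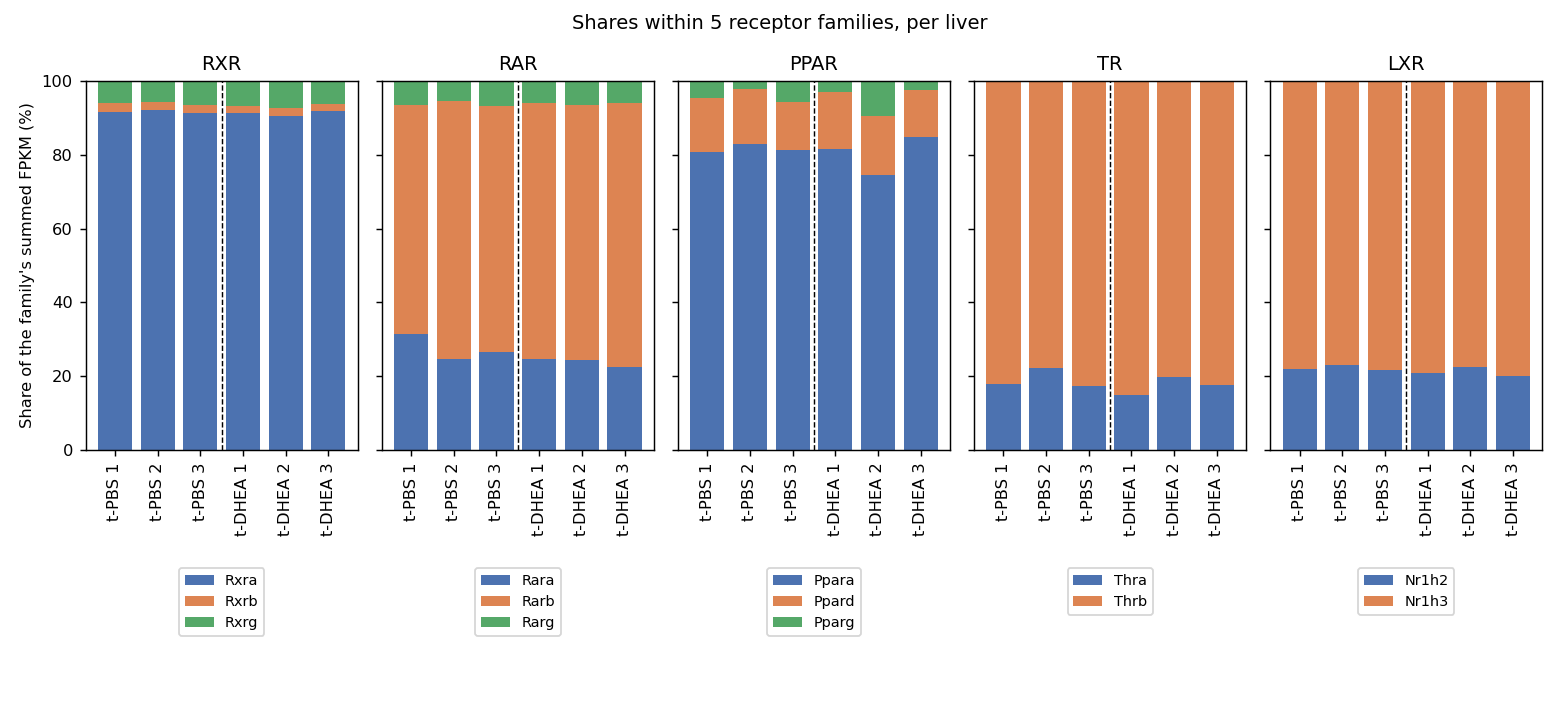
Share of each gene in the summed FPKM of its family, per liver, for the RXR, RAR, PPAR, thyroid hormone (TR) and LXR families. One gene dominates each family in every liver: Rxra 91.5%, Rarb 68.1%, Ppara 81.0%, Thrb 81.7% and Nr1h3 78.3% on average.

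The bile acid axis runs from FXR (Nr1h4) through SHP (Nr0b2), which binds no DNA itself and represses bile acid synthesis, to LRH-1 (Nr5a2), an activator of the same enzymes. Nr1h4 (ENSRNOG00000007197, chr7:30003429-30162056) was at 139, 108 and 109 CPM in t-PBS and 106, 98.0 and 99.0 CPM in t-DHEA livers. All t-DHEA livers were lower, but t-PBS liver 1 stood well above the remainder. The log2 fold change was −0.23 ± 0.12 (SE; edgeR's quasi-likelihood test, unadjusted p = 0.0783) and shrank to −0.10 without that liver, whereas scaling by the total count alone called it (−0.27, unadjusted p = 0.0398). Nr5a2 (ENSRNOG00000000653, chr13:53750473-53870428) was at 68.9, 69.2 and 72.8 CPM in t-PBS and 68.8, 57.5 and 56.0 CPM in t-DHEA livers. The groups were separated only just, since t-DHEA liver 1 lay barely below the lowest t-PBS liver. Its log2 fold change was −0.21 ± 0.10 (edgeR's quasi-likelihood test, unadjusted p = 0.0733), and without t-DHEA liver 1 it was −0.31 and called (unadjusted p = 0.0132).

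Nr0b2 (ENSRNOG00000007229, chr5:151776004-151779319) was at 9.74, 5.31 and 27.7 CPM in t-PBS and 20.4, 9.35 and 15.0 CPM in t-DHEA livers. The t-PBS livers enclosed all the t-DHEA livers, and the variation within groups, 63.4%, was the largest of any member above 1 FPKM. The log2 fold change was 0.07 ± 0.52, with a 95% interval from −1.12 to 1.25, and it ran from −0.33 to 0.98 as single livers were left out. Without t-PBS liver 3, the liver with the highest value, Nr0b2 was called higher in t-DHEA (0.98, edgeR's quasi-likelihood test, unadjusted p = 0.0260). In fold terms the interval with all livers ran from 0.461 to 2.38, so it did not exclude a difference in SHP transcripts of about 2-fold either way.

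**Figure D5:**
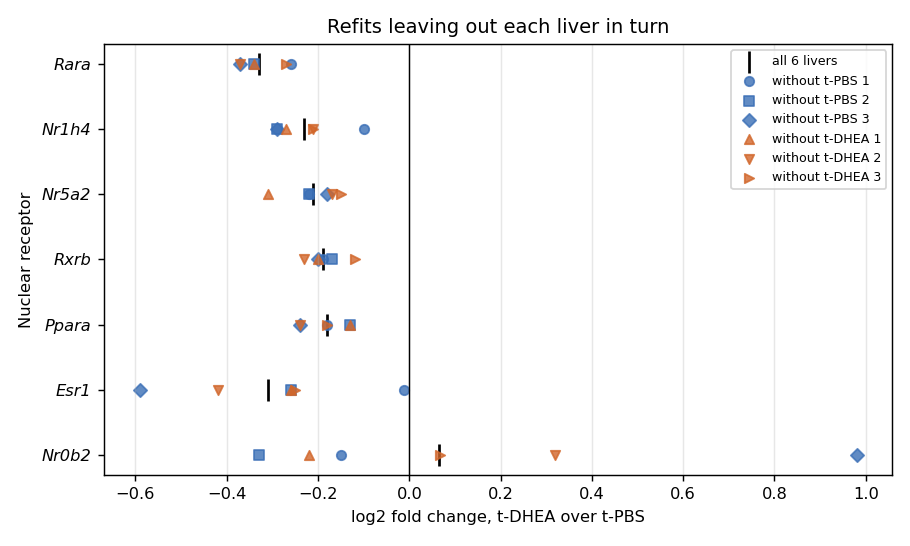
Log2 fold change (t-DHEA over t-PBS) with all 6 livers (black bar) and without each liver in turn (points). Rara stays between −0.37 and −0.26 in all refits, Nr1h4 shrinks to −0.10 without t-PBS liver 1, and Nr0b2 crosses 0, from −0.33 to 0.98.

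Of the 4 genes listed as repressed through SHP, 2 were higher and 2 lower in t-DHEA, and the 2 higher genes were called. Cyp7a1, the rate-limiting enzyme of bile acid synthesis, was at 108, 54.1 and 128 CPM in t-PBS and 503, 131 and 260 CPM in t-DHEA livers, a log2 fold change of 1.62 ± 0.46 (edgeR's quasi-likelihood test, unadjusted p = 0.00695) that was called in all 6 refits without one liver. Cyp8b1, which directs synthesis to cholic acid, was at 191, 229 and 197 CPM against 174, 422 and 369 CPM (0.65 ± 0.28), and that call was held in only 1 of the 6 refits. Within each group the order of the livers was the same for Cyp7a1 and Nr0b2, liver 2 being lowest in both groups, liver 3 highest in t-PBS and liver 1 highest in t-DHEA. This order was noticed after the values were seen. Of 9 genes activated by FXR, 6 were tested, 5 were higher, 1 was lower and none was called (median log2 fold change 0.10). Baat, which conjugates bile acids, was at 575, 761 and 889 CPM against 754, 886 and 1020 CPM (0.26 ± 0.18), and Slc51b was listed at 0 in every liver.

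The oxysterol receptors were steady. Nr1h3 was at 103, 98.6 and 116 CPM in t-PBS and 111, 121 and 121 CPM in t-DHEA livers, with a log2 fold change of 0.15 ± 0.10 that stayed above 0 in all 6 refits (0.11 to 0.22) and was not called. Nr1h2 was at 35.6, 36.6 and 39.3 CPM against 35.9, 43.0 and 37.4 CPM (0.06 ± 0.11). Nr1h3 made up 78.3% of LXR transcripts per length on average. Of 12 LXR targets 10 were tested, of which 4 were higher and 6 lower, with 1 call in each direction. Srebf1, the regulator of fatty acid synthesis, was at 232, 241 and 324 CPM against 491, 272 and 362 CPM (0.50 ± 0.21), and its call was held in 2 of the 6 refits. Lpl, the lipoprotein lipase, was at 17.5, 26.7 and 14.0 CPM against 9.33, 4.94 and 5.56 CPM (−1.56 ± 0.29), called in all 6.

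The receptors for foreign compounds overlapped as well. Nr1i2 was at 173, 162 and 168 CPM in t-PBS and 177, 128 and 158 CPM in t-DHEA livers (log2 fold change −0.12 ± 0.12), and its t-DHEA livers were more scattered, with an SD of 24.6 against 5.56 CPM. Nr1i3 (CAR) was at 11.1, 7.15 and 12.3 CPM against 10.7, 8.38 and 11.0 CPM (−0.02 ± 0.21). Liver 2 was the lowest of its group for Nr1i3, as it was for Dbp, a clock output factor known to drive the CAR gene, which was at 32.0, 29.1 and 62.4 CPM against 112, 41.7 and 123 CPM. This was noticed after the values were seen. Of 11 genes whose daily phase is that of Dbp, 10 were tested, and these were all higher in t-DHEA, 5 of them called. The remaining gene had too few counts to pass the filter, and its t-DHEA livers all lay below its t-PBS livers. The difference of Nr1i3 had an interval from −0.50 to 0.46. Of 16 PXR and CAR targets 14 were tested, 11 were higher and 3 lower, with 1 call each way. Cyp3a9, a steroid hydroxylase, was at 36.0, 15.4 and 23.5 CPM against 71.4, 66.7 and 27.2 CPM (1.14 ± 0.38), and Slco1a4, an uptake transporter, at 227, 207 and 354 CPM against 209, 165 and 160 CPM (−0.56 ± 0.20). Their calls were held in 5 and 3 of the 6 refits.

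Among the fatty acid receptors Ppara, the driver of fatty acid oxidation in fasting liver, made up 81.0% of PPAR transcripts per length, Ppard 14.4% and Pparg 4.58%. Ppara was at 24.3, 25.8 and 22.2 CPM in t-PBS and 19.4, 23.0 and 21.2 CPM in t-DHEA livers, and only t-DHEA liver 2 reached into the t-PBS range. Its log2 fold change of −0.18 ± 0.11 was below 0 in all 6 refits (−0.24 to −0.13) and was not called (edgeR's quasi-likelihood test, unadjusted p = 0.129). Ppard was at 12.8, 13.6 and 10.6 CPM against 10.8, 14.4 and 9.27 CPM (−0.11 ± 0.18). Pparg rested on 18, 8 and 18 counts in t-PBS and 8, 35 and 7 counts in t-DHEA livers. Its single high value, in t-DHEA liver 2, gave a log2 fold change of 0.26 ± 0.61, which ran from −0.82 to 0.63 over the refits. Of 20 PPARalpha targets 18 were tested, 7 were higher and 11 lower, and 1 was called. That was Plin2, a coat protein of lipid droplets, at 158, 161 and 153 CPM against 111, 131 and 104 CPM (−0.45 ± 0.11), called in all 6 refits. Cpt1a, which admits fatty acids to mitochondria, was at 243, 229 and 216 CPM against 168, 224 and 186 CPM (−0.25 ± 0.12) and was not called.

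The steroid and thyroid hormone receptors showed no call. Esr1, the oestrogen receptor alpha, was at 43.1, 33.5 and 17.7 CPM in t-PBS and 23.6, 29.1 and 23.3 CPM in t-DHEA livers. The t-PBS livers spread over the whole t-DHEA range. The log2 fold change was −0.31 ± 0.27, with −0.01 without t-PBS liver 1 and −0.59 without t-PBS liver 3, the latter called (edgeR's quasi-likelihood test, unadjusted p = 0.00532), so its value rested on single livers. Nr3c1 was at 151, 124 and 141 CPM against 163, 133 and 146 CPM (0.09 ± 0.11). The second Nr3c1 row (ENSRNOG00000048800, chr18:32669427-32670665) was at 20.5, 20.9 and 21.0 CPM against 27.1, 16.5 and 24.3 CPM (0.12 ± 0.17). Its length of 1239 bases in the FPKM equals the span of its locus, it has the same symbol as the row at chr18:31728373-31749647, and how fragments were divided between the rows is uncertain. Nr3c2, the mineralocorticoid receptor, was at 3.43, 3.54 and 4.60 CPM against 3.96, 3.44 and 4.33 CPM (0.02 ± 0.20). Tat, a tyrosine aminotransferase induced by glucocorticoids, was at 481, 561 and 621 CPM against 630, 1040 and 992 CPM (0.68 ± 0.19) and was the only gene called of the 14 tested glucocorticoid receptor targets, 9 of which were higher.

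Thrb, the thyroid hormone receptor beta, made up 81.7% of TR transcripts per length and was at 83.8, 66.7 and 69.9 CPM in t-PBS and 86.0, 70.4 and 72.4 CPM in t-DHEA livers (0.05 ± 0.12). Thra was at 8.06, 8.41 and 6.42 CPM against 6.61, 7.71 and 6.88 CPM (−0.11 ± 0.16). The Thra locus shares 1059 bases with Nr1d1, and since the strand setting of the counting is not stated, reads of these neighbours cannot be told apart there; Esr1 shares 685 bases with Rn60_1_0430.2, Nr3c2 shares 498 with LOC688462 and Esrra shares 47 with Trmt112. Of 7 thyroid hormone targets, 3 were higher and 4 lower. The one called was Hr, a corepressor gene, at 1.68, 1.25 and 0.906 CPM against 0.743, 0.224 and 0.309 CPM (−1.60 ± 0.49). Hr rested on 24, 17 and 12 counts in t-PBS and 9, 3 and 4 counts in t-DHEA livers. Its counts in t-DHEA livers 2 and 3 were at or close to the limit of 3 counts given above.

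Hnf4a was at 572, 564 and 540 CPM in t-PBS and 601, 658 and 553 CPM in t-DHEA livers, a log2 fold change of 0.11 ± 0.10 that was not called and stayed above 0 in all 6 refits (0.05 to 0.18). Of 12 HNF4alpha targets, 8 were higher and 4 lower, and the single call was again Cyp8b1. The oestrogen-related receptors, which drive mitochondrial genes, gave log2 fold changes of −0.11 ± 0.12 for Esrra and 0.17 ± 0.16 for Esrrg, and none of their 8 targets was called. Rora, which activates clock genes, was at 3.57, 2.80 and 2.87 CPM against 3.63, 2.99 and 2.09 CPM (−0.09 ± 0.26). Of 5 genes with ROR elements, 1 was higher and 4 lower, and Arntl, a core clock gene, was called at 36.7, 29.1 and 26.0 CPM against 14.1, 22.4 and 13.7 CPM (−0.87 ± 0.21).

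Among the orphan receptors of the NR2 group, Nr2f6 was at 37.6, 36.9 and 39.9 CPM in t-PBS and 33.2, 46.9 and 34.3 CPM in t-DHEA livers (log2 fold change 0.00 ± 0.14), and Nr2f2 at 24.5, 29.1 and 30.8 CPM against 28.2, 30.8 and 24.7 CPM (−0.01 ± 0.13). Nr2c1 gave 0.09 ± 0.15 and Nr2f1 −0.23 ± 0.29. Nr2c2 was at 12.1, 9.22 and 9.21 CPM against 16.9, 11.7 and 8.96 CPM (0.30 ± 0.23). It was called only without t-DHEA liver 3 (0.50, edgeR's quasi-likelihood test, unadjusted p = 0.0459). Nr6a1, the germ cell nuclear factor, had 18 to 24 counts in t-PBS and 22 to 25 in t-DHEA livers (0.20 ± 0.27).

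The NR4A receptors are induced within minutes by many stimuli. Nr4a1 was at 1.33, 2.14 and 7.32 CPM in t-PBS and 0.991, 2.32 and 3.48 CPM in t-DHEA livers, with a variation within groups of 84.0% and a log2 fold change of −0.65 ± 0.64. Nr4a2 was at 3.50, 5.16 and 6.42 CPM against 2.89, 4.56 and 8.11 CPM (0.05 ± 0.36). For both genes liver 3 was the highest of its group. The summed immediate early genes were 290 to 754 CPM in t-PBS and 284 to 817 CPM in t-DHEA livers, and in neither group did they follow the NR4A order. In t-PBS, liver 2 had the lowest sum but liver 1 the lowest Nr4a1 and Nr4a2. In t-DHEA, liver 2 had the highest sum but liver 3 the highest Nr4a1 and Nr4a2.

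The partners of the receptors changed as little as the receptors. Of 15 coactivators, 4 were higher and 11 lower in t-DHEA, none was called, and the median log2 fold change was −0.08. Of 12 corepressors, 6 were higher and 6 lower, with no call and a median of 0.00. Ncoa6, a coactivator subunit, was at 37.8, 38.9 and 36.5 CPM against 36.6, 32.7 and 30.9 CPM (−0.18 ± 0.10). Of 12 tested enzymes that make or degrade receptor ligands, 4 were higher and 8 lower and none was called. Over all 16 lists of targets, ligand enzymes, cofactors and further receptors, 141 distinct genes were tested and 10 were called, 5 in each direction, which is 7.09% beside 4.95% of all tested genes, and the median log2 fold change was 0.01. In 12 of these 141 genes the livers of the groups were separated, which is 8.51% beside 10.1% of all tested genes.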

How the data were processed

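Total RNA of snap-frozen liver was made into paired-end TruSeq libraries. The authors mapped the reads to Rnor_6.0 and counted fragments per gene; the submitters' processing notes name HISAT2 2.0.4 and StringTie 1.3.0. The annotation release and strand setting are not given in the sources used here. The deposited counts are raw. The deposited FPKM equal the count over gene length and library total within a relative difference of 0.00079. No value column was left unmapped, and no libraries were duplicates (chi-square per degree of freedom at least 16.1).

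The counts were fitted over all genes with edgeR 4.0.16 in R 4.3.3 (TMM factors, default filter, quasi-likelihood test, no block), with 95% intervals from the fitted errors. Alternatives used DESeq2 1.42.0, edgeR's likelihood-ratio test, limma 3.58.1 on log2(FPKM + 0.1) and log2(FPKM + 1), other scalings and filters, a fold change above 1.5, the replicate block, and each liver left out. The test was checked on simulated counts. Nothing says whether livers came from separate cages. The p-values weigh the difference between groups against the spread between these rats, which the test takes as independent.

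The members, the lists of targets, cofactors and markers and the motifs were chosen with earlier results of these data known. Every member is given, and from each list up to 2 genes with the lowest unadjusted p, besides marker genes listed at 0; Msln, Dbp, the other receptors at 0 and Slc51b were named outside this rule, after their values were seen. Some genes of the lists are not reported here. Of 166 list genes, 157 matched by symbol, 1 through the RefSeq gene table and 8 did not match. Promoters are from RefSeq on GRCr8. The smallest exact p for 3 against 3 livers is 0.1.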

Additional observations from a re-analysis of the deposited data

How the results depend on the processing

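The count of called members, 1 in the report, was 2 when libraries were scaled by total count alone (Rara and Nr1h4), 0 at a fold change above 1.5, and 0 to 3 when one liver was left out, being 0 without t-PBS liver 1 and 3 without t-PBS liver 3. The 10 called genes of the target and cofactor lists became 11 to 18 when one liver was left out (18 without t-DHEA liver 2, 17 without t-PBS liver 3) and stayed within 1.5 times of 10 otherwise. The replicate numbers did not pair the livers: same-numbered livers had correlations of their deviations from the group means of −0.0571, −0.0592 and −0.0551, so they share only a number. With the replicate block, 1 member and 12 list genes were called, and Srebf1 was no longer called (0.47, unadjusted p = 0.0568 in edgeR).

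Some uncalled members changed sign, and the cause was not tested. On the log2 scale, Pparg was −0.026 in limma with a pseudocount of 0.1. Nr3c2 was −0.017 with the total count, −0.012 in limma with 0.1 and −0.0087 with 1. Nr2f6 was −0.036, −0.055 and −0.052 in the same order, −0.0026 with at least 10 counts in every liver and −0.015 with the replicate block. Nr4a2 was −0.066 and −0.023 in limma and −0.013 with the replicate block. When one liver was left out, values ran from −0.33 to 0.98 for Nr0b2, −0.017 to 0.11 for Nr1h2, −0.23 to 0.0014 for Nr1i2, −0.22 to 0.14 for Nr1i3, −0.30 to 0.032 for Ppard, −0.82 to 0.63 for Pparg, −0.13 to 0.059 for Rarb, −0.041 to 0.16 for Thrb, −0.031 to 0.31 for the second Nr3c1 row, −0.058 to 0.16 for Nr3c2, −0.28 to 0.11 for Rora, −0.0016 to 0.27 for Nr2c1, −0.40 to 0.017 for Nr2f1, −0.10 to 0.075 for Nr2f2, −0.17 to 0.091 for Nr2f6, −1.09 to 0.39 for Nr4a1 and −0.42 to 0.33 for Nr4a2.

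The depth of these libraries gives under 100 counts per liver for Pparg, Nr4a1, Nr6a1, Nr3c2, Nr2f1, Rora, Vdr and Nr4a3, and 3 livers per group leave Nr0b2 unresolved.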
